A study of Mus musculus with 217 samples.

Results

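The developmental transcription factor families examined here were 112 protein-coding genes whose symbols begin with Hoxa, Hoxb, Hoxc, Hoxd, Pax, Lhx, Nkx, Dlx, Irx, Pitx, Onecut, Tbx or Gata followed by a digit, or with the same stem as the sine oculis homolog Six2, out of 54532 genes counted in both deposited tables. Members were taken by name and by no measured value, but the families were picked with earlier results of these data known. The Hox clusters gave 39 members, namely 11 Hoxa, 10 Hoxb, 9 Hoxc and 9 Hoxd genes. The other families gave 14 Nkx, 13 Tbx, 9 Pax, 8 Lhx, 6 Dlx, 6 Irx, 6 Gata, 5 sine oculis, 3 Pitx and 3 Onecut genes.

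These genes encode DNA-binding proteins that assign position and cell fate in the embryo. Hox proteins set identity along the body axis behind the forebrain, Pax, Nkx, Lhx, Irx and Onecut proteins divide the neural tube into domains, and Tbx and Gata proteins act mostly in mesoderm, blood and heart. In the adult brain most of them are kept off by Polycomb complexes, of which complex 2 methylates lysine 27 of histone H3 and complex 1 binds that mark and ubiquitinates histone H2A. A few stay on in the forebrain, such as the Dlx genes and Lhx6 of GABAergic neurons, Nkx2-1 and Lhx8 of neurons born in the ventral forebrain, Lhx2 of cortex and Nkx2-2 and Nkx6-2 of oligodendroglia. The comparison asked whether silent members gain transcripts when mutant huntingtin is expressed, and whether they lose them again when it is lowered. No histone mark was measured, and none of the members was checked here for Polycomb binding.

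RNA of striatum and cerebral cortex was sequenced from C57BL/6 mice of 6 and 12 months, in 217 libraries, 107 of striatum and 110 of cortex, each from 1 mouse per tissue. All mice, wild types included, carried a Lac repressor transgene under the beta-actin promoter, genotype Hdh(LacO-+/+):beta-actin-LacIR tg in WT mice and Hdh(LacO-140Q/+):beta-actin-LacIR tg in LacQ140 mice, where Lac operators sit in the promoter of the expanded allele and the repressor holds that allele down unless the lactose analog IPTG is given. LacQ140 mice received IPTG from embryonic day 5 to the end, LacQ140_2M and LacQ140_8M mice received it from the same day until 2 or 8 months, LacQ140_A mice never received it, and WT mice received it from that day throughout (WT + IPTG) or never (WT). LacQ140_8M mice were taken at 12 months, where they had been without IPTG since 8 months. Groups held 10 mice, 5 female and 5 male, except WT, LacQ140 and LacQ140_8M of the 12-month striatum, which held 9. The expanded allele was heterozygous and the repressor was driven by a broadly active promoter, so lowering was not confined to neurons. Each age was 1 labelled batch, so age and batch cannot be told apart and no test was made across ages.

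The promoter windows of 4 members that rose and 1 that stayed at 0 counts are shown because CpG-rich promoters are the usual seat of Polycomb silencing. Each runs from 250 bases before to 50 bases after the transcription start in RefSeq (GRCm38.p6), 5′ to 3′ on the gene's own strand, with every CpG in capitals. Hoxc4 lies at chr15:103034145-103034444 (+), Onecut1 at chr9:74861671-74861970 (+), Nkx2-3 at chr19:43612075-43612374 (+), Hoxa7 at chr6:52218524-52218823 (-) and Hoxb1, which had no count in any library, at chr11:96365508-96365807 (+).
Hoxc4: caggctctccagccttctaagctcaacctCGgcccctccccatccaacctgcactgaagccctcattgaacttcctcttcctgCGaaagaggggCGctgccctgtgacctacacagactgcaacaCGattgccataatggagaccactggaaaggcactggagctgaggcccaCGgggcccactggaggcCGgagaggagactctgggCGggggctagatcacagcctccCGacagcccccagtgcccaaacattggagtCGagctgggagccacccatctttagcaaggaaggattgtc
Onecut1: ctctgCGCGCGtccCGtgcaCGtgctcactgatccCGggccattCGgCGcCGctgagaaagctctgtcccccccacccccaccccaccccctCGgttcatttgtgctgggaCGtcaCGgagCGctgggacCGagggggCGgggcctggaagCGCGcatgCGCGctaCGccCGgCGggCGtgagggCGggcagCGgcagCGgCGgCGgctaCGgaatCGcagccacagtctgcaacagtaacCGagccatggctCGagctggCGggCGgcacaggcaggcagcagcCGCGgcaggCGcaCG
Nkx2-3: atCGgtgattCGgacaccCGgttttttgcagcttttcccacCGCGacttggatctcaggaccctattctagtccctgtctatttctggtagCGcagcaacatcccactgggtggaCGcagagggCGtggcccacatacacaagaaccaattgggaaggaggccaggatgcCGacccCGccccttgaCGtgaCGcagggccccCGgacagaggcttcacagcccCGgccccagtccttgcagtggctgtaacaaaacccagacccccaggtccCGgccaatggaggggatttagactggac
Hoxa7: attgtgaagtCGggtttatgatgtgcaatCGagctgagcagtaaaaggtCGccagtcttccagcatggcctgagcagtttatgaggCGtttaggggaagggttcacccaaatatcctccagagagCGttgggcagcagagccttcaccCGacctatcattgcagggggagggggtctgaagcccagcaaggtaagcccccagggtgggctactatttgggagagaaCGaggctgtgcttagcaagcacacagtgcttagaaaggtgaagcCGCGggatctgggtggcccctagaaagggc
Hoxb1: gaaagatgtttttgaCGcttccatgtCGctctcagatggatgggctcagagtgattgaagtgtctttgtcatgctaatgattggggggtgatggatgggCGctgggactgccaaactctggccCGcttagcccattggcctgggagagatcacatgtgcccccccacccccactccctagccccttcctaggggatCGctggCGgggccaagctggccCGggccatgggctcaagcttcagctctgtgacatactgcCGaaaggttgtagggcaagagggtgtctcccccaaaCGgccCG
The Hoxc4 and Hoxa7 windows stand at a RefSeq start that lies inside the longer span of the gene as counted here, so they are not the windows of its outermost annotated start. The Onecut1 window held 38 CpGs at 73% GC, against 15 CpGs in Nkx2-3, 10 in Hoxb1 and 9 each in Hoxc4 and Hoxa7. RefSeq windows were at hand for 71 of the 112 members, 85 windows in all, with a median of 17 CpGs against 7 over all 32851 windows, and 56.5% of them were CpG-rich (GC of at least 50% and an observed-to-expected CpG ratio of at least 0.6) against 33.5% of all windows. Of the printed windows only that of Onecut1 was CpG-rich by this rule. Members silent in striatum that rose at 12 months had a median of 15 CpGs over 9 windows of 7 genes, and silent members that did not had a median of 20 over 48 windows of 43 genes, a difference that was not tested, with 5 of the 12 risen silent members lacking a window, Hoxc5, Hoxc6 and Hoxc10 among them. Of the windows of silent members, 44.4% were CpG-rich in those that rose and 54.2% in those that did not, also not tested. The homeodomain core TAATTA, read on both strands, stood in 4.71% of the members' windows and 5.29% of all windows, and ATCAAT, the core bound by Onecut proteins, in 10.6% and 7.54%. None of the printed windows held either hexamer, which says only that these letters are not in these windows.

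Libraries held between 33292057 and 68038831 counts. Values are counts scaled to library depth with TMM factors (CPM), and a count of 0 over all striatal libraries allows a level of up to 0.00117 CPM at 6 months and 0.00128 CPM at 12 months, by counting error only. Htt, the modified gene, averaged 146.2 CPM in WT + IPTG, 111.0 in LacQ140, 93.4 in LacQ140_A, 100.3 in LacQ140_2M and 110.9 in LacQ140_8M in the 12-month striatum; these counts add both alleles, so the LacQ140_8M mean does not tell the mutant allele apart. The 12-month cortex stood apart from the other sets, with a slope of log2 CPM on log2 transcript length of median -0.0842 against 0.390, 0.480 and 0.388 elsewhere. Of 6 markers of spiny projection neurons, the main neurons of striatum, all 6 were lower in LacQ140 striatum at both ages (medians of -0.36 and -0.80 on the log2 scale), and in tissue RNA fewer cells of a type cannot be told apart from less RNA per cell.

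In WT mice the members spanned the range from no transcript to that of ordinary neuronal genes. In the 12-month striatum of WT mice without IPTG, 79 of the 112 members averaged under 0.1 CPM, the bound used for "silent", and 33 were above it. Lhx1 at 0.0832 CPM and Hoxd1 at 0.0966 CPM were the 2 members just under the bound, and Pax1 at 0.105 CPM and Lhx5 at 0.115 CPM the 2 just over it. No count at all was found for 12 members in 12-month striatum, 11 of them Hox genes, and 9 members had none in either tissue at either age (Hoxa11, Hoxa13, Hoxb1, Hoxc11, Hoxc12, Hoxd10, Hoxd11, Hoxd13 and Nkx2-6).

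**Figure D1:**
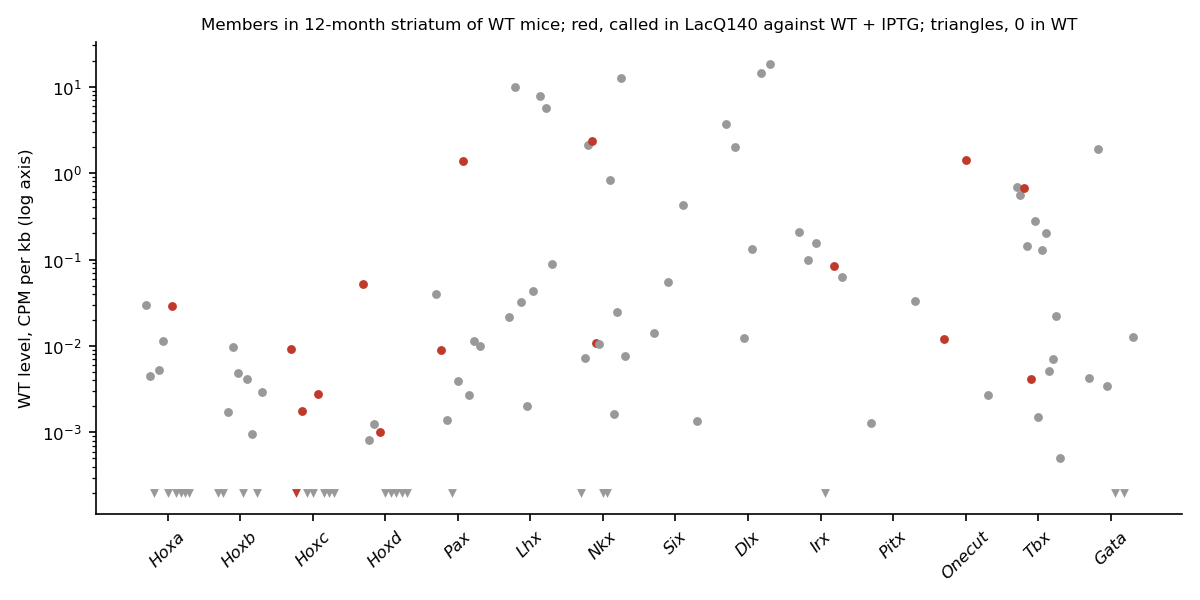
Mean level of 109 members in the 12-month striatum of WT mice without IPTG, in CPM per kb of transcript on a log axis, by family, with triangles for members at 0. Red points are 16 of the members called in LacQ140 against WT + IPTG; most of them lie at or below the level of the silent members, and the highest points are Dlx6 (18.3), Dlx5 (14.3) and Nkx6-2 (12.5).

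Per kb of transcript, the highest members in 12-month WT striatum were Dlx6 (18.3 CPM per kb), Dlx5 (14.3), Nkx6-2 (12.5), Lhx2 (9.88), Lhx6 (7.77), Lhx8 (5.59), Dlx1 (3.67) and Nkx2-2 (2.36), and the same 8 genes led at 6 months. In 6-month cortex the list was headed by Lhx2 (20.3 CPM per kb), Dlx1 (6.81), Nkx6-2 (5.45), Lhx6 (4.74) and Pax6 (2.43), the eye and dorsal forebrain regulator. In a fit over both tissues with the mouse as a block, 36 of 99 members differed between striatum and cortex of WT + IPTG mice at 6 months, 15 higher in striatum and 21 lower, against 27.5% of all genes tested and 41.7% of protein-coding genes. The striatal side held Onecut2 (log2 difference 3.30), Dlx6 (3.20), Dlx5 (2.31), Nkx2-1 (4.20) and Lhx8 (4.28), and the cortical side Lhx2 (-1.33), Tbx15 (-2.21), Six2 (-3.34) and Dlx1 (-0.88). At 12 months 37 of 101 members differed, 28 higher and 9 lower in striatum, against 45.4% of all genes and 67.6% of protein-coding genes, with Nkx2-1 at 6.63, Lhx8 at 5.23 and Onecut2 at 5.07. Nkx2-1, Lhx8 and Onecut2 were thus higher in striatum at both ages, with the 12-month set resting on the cortex libraries that stood apart. Other members called at both ages changed side, such as Tbx2 (-0.40, then 2.19), Tbx3 (-0.48, then 2.49), Gata2 (-0.43, then 2.18), Six5 and Tbx18. Six2 was not called at 12 months (adjusted p = 0.0778).

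The main result lay in the 12-month striatum. LacQ140 mice differed from WT + IPTG mice in 17 of 100 members tested (17.0%), 16 higher and 1 lower, against 9.44% of all 35386 genes and 14.2% of the 19345 protein-coding genes, by the quasi-likelihood test of edgeR with an adjusted p under 0.05 and a change of at least 20%. The share of members called was thus near that of protein-coding genes. The median log2 fold change of the members tested was 0.25, against 0 over all genes. For 6 members, Hoxc4, Hoxc5, Hoxc6, Nkx2-3, Onecut1 and Onecut2, every LacQ140 library lay above every WT + IPTG library, while the 2 groups did not overlap for 2.07% of all genes. Among members silent in WT, 12 of 67 tested were called higher (17.9%, or 15.2% of all 79) and none lower, against 2.09% called higher among protein-coding genes silent by the same bound. The number called was 5 when genes were kept by edgeR's filterByExpr, which removes genes with few counts, and 6 when silence was set over all libraries, which removes members that rose. A silent member passes filterByExpr mainly through groups where it is high, so the count of 5 is a description only. The bound was set on WT mice without IPTG, which did not enter the comparison. Among the 33 members above the bound 4 were called higher and 1 lower, against 16.9% of expressed protein-coding genes called in either direction.

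**Figure D2:**
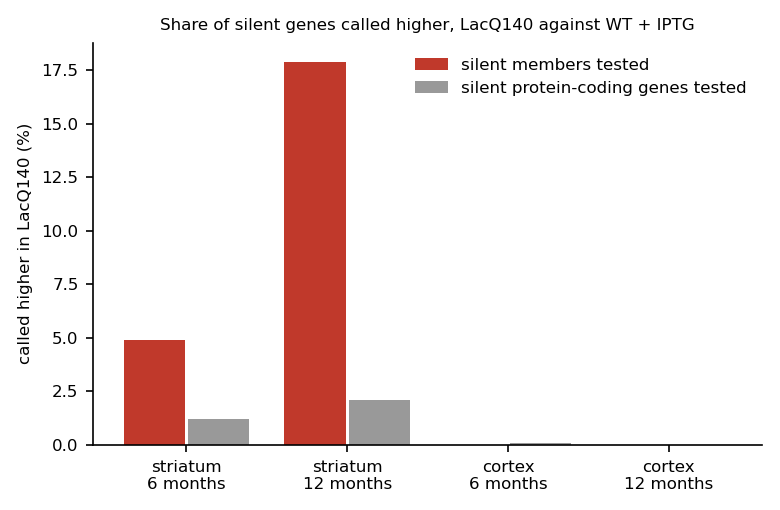
Share of silent genes called higher in LacQ140 than in WT + IPTG mice, in percent of those tested, for members (red) and for all protein-coding genes under the same bound of 0.1 CPM in WT (grey). In striatum the members' bars stand at 4.92% and 17.9% against 1.22% and 2.09%, and in cortex no member was called.

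The summed level of the 79 silent members ran from 6.39 CPM through a median of 7.35 to 11.4 CPM in LacQ140 striatum at 12 months, and from 0.972 through 1.5 to 3.44 CPM in WT + IPTG. The lowest LacQ140 library therefore lay above the highest WT + IPTG library. The number of silent members detected moved less than their sum, since a LacQ140 library had counts for 26 to 38 silent members (median 35) and a WT + IPTG library for 18 to 28 (median 23).

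**Figure D3:**
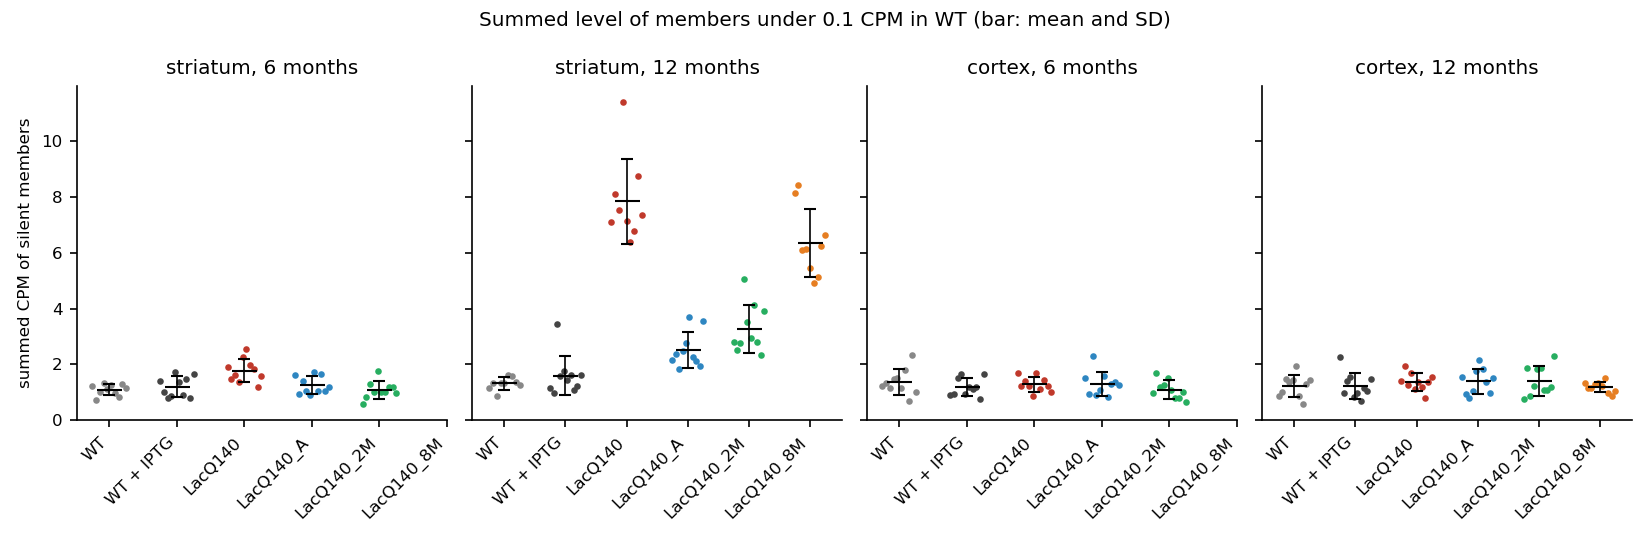
Summed CPM of the silent members in each library by tissue, age and group, 1 point per mouse, with the mean and SD. In 12-month striatum the LacQ140 libraries reach 11.4 CPM and LacQ140_8M libraries 8.44 CPM, while no library of the other 3 panels exceeds 2.55 CPM.

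In CPM, most of this difference lay in 3 adjacent genes of the Hoxc cluster and in Onecut1. Hoxc4, a cervical-level Hox gene at chromosome 15, 103018934 to 103036852 on the plus strand, had between 0.511 and 2.55 CPM (median 2.05) in the 9 LacQ140 striata and between 0 and 0.0488 CPM (median 0) in the 10 WT + IPTG striata. There were 601 counts against 3, a depth-scaled ratio of 230 with an exact 95% counting interval of 78.2 to 1116, and the fitted log2 fold change was 7.25 (SE 0.49, adjusted p = 1.27e-21). Hoxc5, its neighbour, had between 0.511 and 2.29 CPM (median 1.08) in LacQ140 and between 0 and 0.0678 (median 0) in WT + IPTG (fitted log2 difference 6.01 ± 0.47 SE, adjusted p = 8.16e-19). Hoxc6 was at 0 in every WT + IPTG library and between 0.0667 and 0.374 CPM (median 0.188) in LacQ140. Its mean was at least 28.6-fold higher against the floor of 3 counts over the group (adjusted p = 6.56e-11). None of the 3 genes overlapped between the groups.

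Farther along the cluster few counts were seen. Hoxc8 had counts in 3 of 9 LacQ140 libraries (highest 0.0533 CPM) and Hoxc9 in 2 (highest 0.0266 CPM), both with none in WT + IPTG, and neither passed the test. Hoxc10 had counts in 6 of 9 LacQ140 libraries (median 0.0227, highest 0.0940 CPM) and none in WT + IPTG, at least 4.32-fold higher (adjusted p = 0.0238), a call that rested on 12 counts and was lost without LacQ140 replicate M5 (adjusted p = 0.0611), with a replicate block (0.0710) and with DESeq2 (0.337). Hoxc11 and Hoxc12 had no count. The annotated span of Hoxc5 covers Hoxc6, Hoxc8 and Hoxc9 and part of Hoxc10 on the same strand, so how reads were divided between these genes is uncertain, which does not touch Hoxc4.

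**Figure D4:**
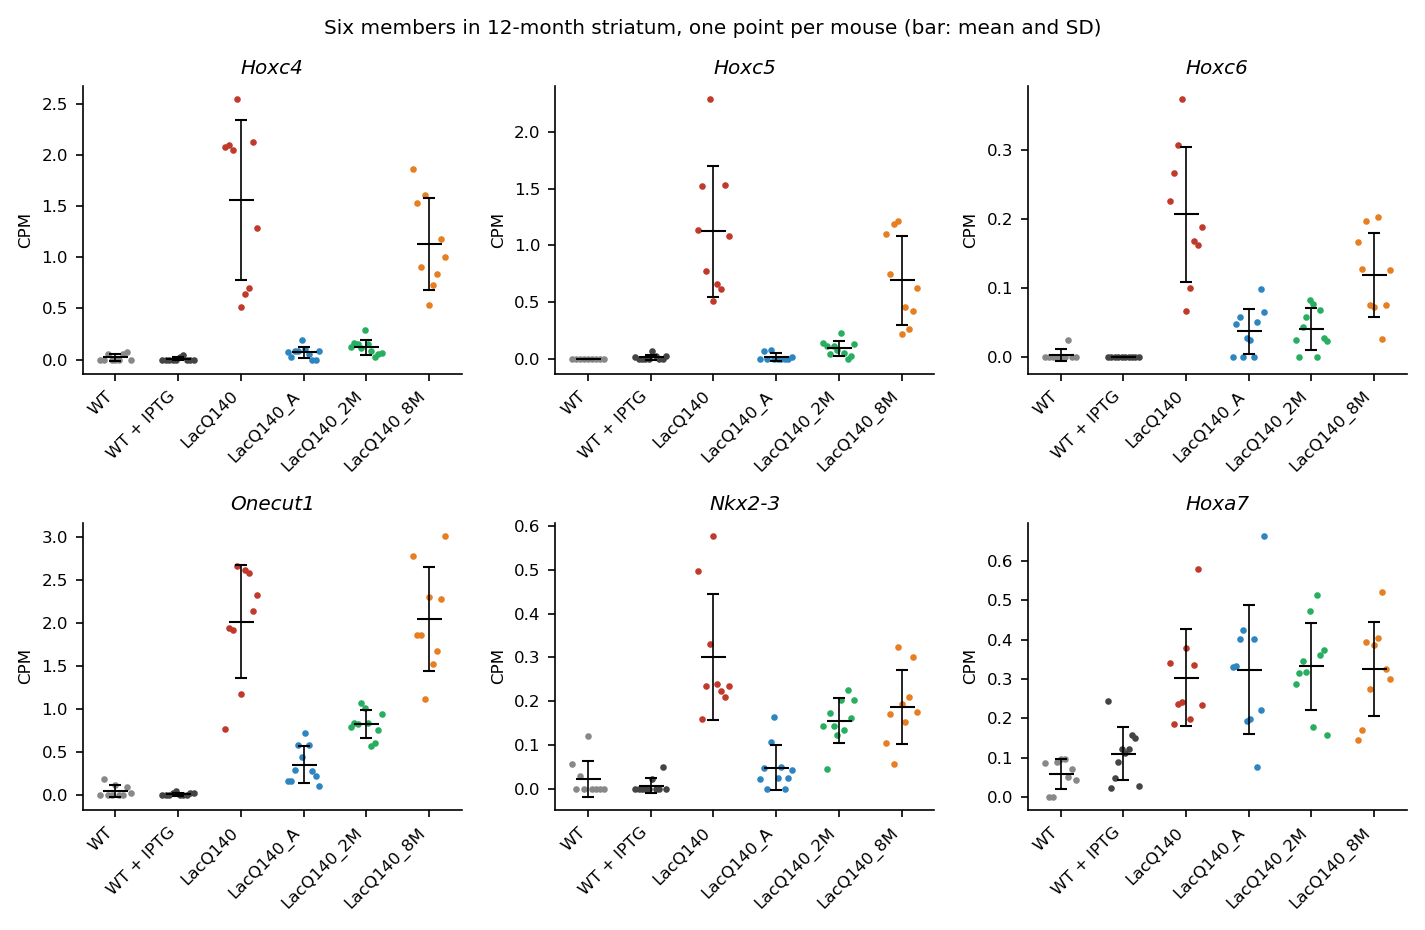
CPM of Hoxc4, Hoxc5, Hoxc6, Onecut1, Nkx2-3 and Hoxa7 in each 12-month striatum by group, 1 point per mouse, with the mean and SD. LacQ140 and LacQ140_8M mice stand above WT + IPTG for the first 5 genes with LacQ140_A and LacQ140_2M between or near WT, while Hoxa7 is at a like level in all 4 groups with the expanded allele (means of 0.304 to 0.332 CPM).

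The other Hox clusters moved far less. The summed level of the 9 Hoxc genes ran from 1.13 to 5.24 CPM in LacQ140 (median 3.21) against 0 to 0.0904 in WT + IPTG. The 11 Hoxa genes summed to a median of 0.408 CPM against 0.190, the 9 Hoxd genes to 0.356 against 0.0757, and the 10 Hoxb genes to 0.0889 against 0.0724, and for these 3 clusters the groups overlapped. Hoxd1, one of the more anterior Hoxd genes, had 0.118 to 0.330 CPM (median 0.249) in LacQ140 and 0.0244 to 0.136 (median 0.0613) in WT + IPTG, with some overlap (log2 fold change 1.57, SE 0.34, adjusted p = 0.00038). Hoxd8 had 31 counts against 2, a ratio of 17.8 (exact 95% counting interval 4.52 to 153), with 8 of 9 LacQ140 libraries holding a count and 1 of 10 WT + IPTG libraries (adjusted p = 0.000618). Hoxa7, a thoracic-level gene, had 0.186 to 0.580 CPM (median 0.242) against 0.0243 to 0.245 (median 0.117), log2 fold change 1.40 (SE 0.33, adjusted p = 0.000924). No Hoxb gene was called.

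The Onecut genes encode cut-homeodomain factors of liver, retina and spinal motor neurons. Onecut1, at chromosome 9, 74861921 to 74891781 on the plus strand, had 0.770 to 2.66 CPM (median 2.13) in LacQ140 striatum at 12 months and 0 to 0.0486 CPM (median 0) in WT + IPTG. The groups were far apart, with 776 counts against 5 and a fitted log2 difference of 7.06 ± 0.41 SE (adjusted p = 6.6e-25), the smallest p among the members. A lincRNA on the same strand covers most of its span, so how reads were divided between the 2 is uncertain. Onecut2 was already expressed, at 17.2 to 25.7 CPM (median 21.8) in WT + IPTG and 25.8 to 50.6 CPM (median 28.6) in LacQ140, and the lowest LacQ140 library lay just above the highest WT + IPTG library (log2 fold change 0.55, SE 0.10, adjusted p = 4.08e-05). Onecut3 had counts in 3 of 9 and 2 of 10 libraries and did not pass the test.

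Among Nkx genes, Nkx2-3, a regulator of gut and spleen mesoderm, had 0.160 to 0.578 CPM (median 0.236) in LacQ140 and 0 to 0.0501 (median 0) in WT + IPTG. With 118 counts against 3 the ratio was 45.1 (exact 95% counting interval 15 to 221.6), the groups did not overlap, and the adjusted p was 3.9e-11. Nkx2-2, which acts in oligodendrocyte precursors, had 5.26 to 10.0 CPM (median 7.06) against 3.32 to 5.73 (median 4.64), log2 fold change 0.68 (SE 0.13, adjusted p = 2.93e-05). The 3 oligodendrocyte precursor markers summed to a median of 121.6 CPM in LacQ140 and 129.7 in WT + IPTG, and 0 of 3 was called.

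Among Pax genes, Pax2, a midbrain-hindbrain and kidney regulator, had 0 to 0.419 CPM (median 0.189) in LacQ140 and 0 to 0.105 (median 0) in WT + IPTG, with counts in 8 of 9 and 3 of 10 libraries (log2 fold change 3.09, SE 0.57, adjusted p = 1.05e-05). Pax6 was expressed throughout, at 7.19 to 9.40 CPM (median 8.16) against 4.66 to 8.26 (median 5.93), log2 fold change 0.45 (SE 0.09, adjusted p = 5.49e-05). A single WT + IPTG library, F3 at 8.26 CPM, made the groups overlap, the next highest being at 6.44 CPM. LacQ140 M2 had the highest sum of cortical neuron markers in its group, at 316 CPM, and without it Pax6 and Pax2 were still called (adjusted p = 0.000251 and 0.000139). The part of cortical tissue in the values of the other libraries was not tested. The other 7 Pax genes were not called.

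The remaining families gave few calls. Irx5, an Iroquois gene, had 0.141 to 0.734 CPM (median 0.377) against 0.0409 to 0.294 (median 0.122), log2 fold change 1.51 (SE 0.30, adjusted p = 8.45e-05), and the other 5 Irx genes were not called. Tbx5, a heart and forelimb gene, had 21 counts in LacQ140 and 2 in WT + IPTG, a ratio of 12.0 (exact 95% counting interval 2.94 to 106, adjusted p = 0.0118). The call was lost without LacQ140 replicate M4 and when only the 2 groups were fitted (adjusted p = 0.0525). Tbx3 was the member called lower, at 2.18 to 3.90 CPM (median 3.28) against 2.61 to 5.38 (median 4.04), log2 fold change -0.36 (SE 0.11, adjusted p = 0.0226), and leaving out 1 library ended that call in 5 of 19 fits, as did fitting only the 2 groups (adjusted p = 0.0559) or pooling the WT groups. No Lhx, sine oculis, Dlx or Gata gene was called. Dlx6, the highest striatal member, had 27 to 33.3 CPM (median 31.2) against 27.7 to 46.7 (median 35.9), an adjusted p of 0.00862 with a log2 fold change of -0.26 that just missed the bound of 20%. Its antisense neighbour Dlx6os1 fell by 0.52 on the log2 scale (14.1 against 20.1 CPM, adjusted p = 3.54e-06), and whether counting used strand is not given in the sources used here.

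**Figure D5:**
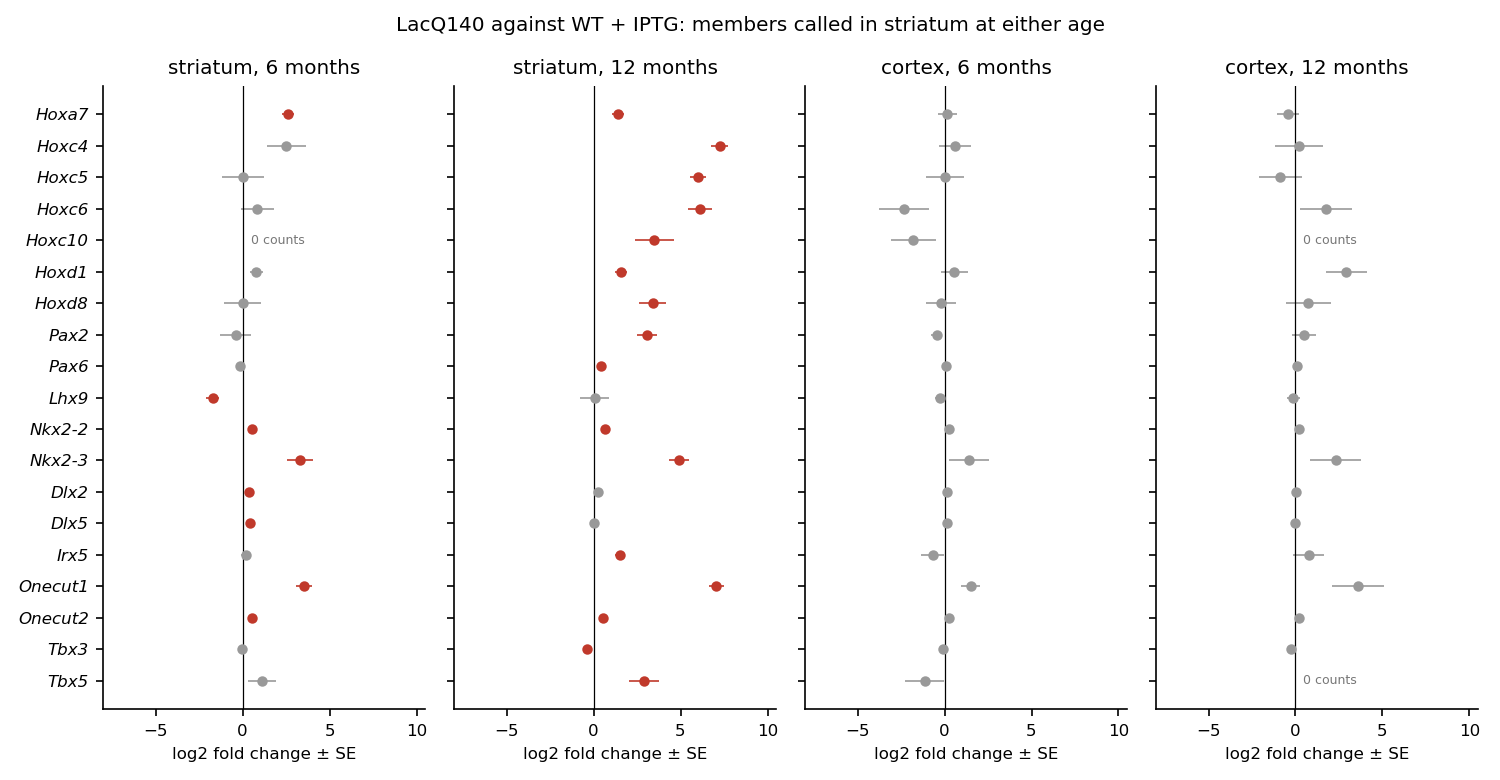
Fitted log2 fold change of LacQ140 against WT + IPTG, with SE, for 19 of the members called in striatum at either age, with 1 panel per tissue and age. Red points were called; in 12-month striatum Hoxc4 (7.25) and Onecut1 (7.06) lie farthest to the right, and in both cortex panels every point is grey.

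In the 6-month striatum fewer members were called than at 12 months and no Hoxc gene was, a difference between the ages that was not tested. In striatum 8 of 95 members tested were called (8.42%), 7 higher and 1 lower, against 7.93% of all genes and 11.9% of protein-coding genes, between which the members' share lay. Groups did not overlap for 1 member, Onecut1, against 1.15% of all genes. Of silent members 3 of 61 tested were called higher (4.92%, or 3.85% of all 78), namely Onecut1, Hoxa7 and Nkx2-3, against 1.22% of silent protein-coding genes. These calls were lost when genes were kept by filterByExpr, which removes genes with few counts. Onecut1 had 0.0749 to 0.782 CPM (median 0.234) in LacQ140 and 0 to 0.0655 (median 0.0192) in WT + IPTG, log2 fold change 3.51 (SE 0.46, adjusted p = 7.57e-09). Hoxa7 had 0.0775 to 0.480 CPM (median 0.210) against 0 to 0.0927 (median 0.0328), log2 fold change 2.62 (SE 0.35, adjusted p = 3.72e-08). Nkx2-3 had 31 counts against 2, a ratio of 16.3 (exact 95% counting interval 4.15 to 140, adjusted p = 0.000896). Hoxc4, by contrast with its 12-month level, had 6 counts over 5 of 10 LacQ140 libraries and none in WT + IPTG (adjusted p = 0.150), and the summed level of Hoxc4, Hoxc5 and Hoxc6 reached at most 0.0434 CPM in a LacQ140 library and 0.144 CPM in a WT library.

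Expressed members called at 6 months were Dlx5, Dlx2, Onecut2 and Nkx2-2, which were higher, and Lhx9, which was lower. Dlx5 had 14.6 to 20.5 CPM (median 16.4) in LacQ140 and 9.60 to 15.2 (median 13.0) in WT + IPTG, log2 fold change 0.43 (SE 0.09, adjusted p = 0.000395). Dlx2 had 3.56 to 5.91 CPM (median 4.37) against 2.49 to 4.05 (median 3.55), log2 fold change 0.39 (SE 0.11, adjusted p = 0.0168). Both make GABAergic identity in the embryonic ventral forebrain, and both groups of libraries overlapped. Onecut2 rose by 0.54 (SE 0.12, adjusted p = 0.00125) and Nkx2-2 by 0.56 (SE 0.14, adjusted p = 0.00488) on the log2 scale. Lhx9, a thalamic gene, had 0.0765 to 0.426 CPM (median 0.171) in LacQ140 and 0.0658 to 2.51 (median 0.385) in WT + IPTG, log2 fold change -1.73 (SE 0.40, adjusted p = 0.00149), and with both WT groups pooled it was not called (adjusted p = 0.242). The 4 thalamic markers moved with it, with sums of 53.8 to 286.8 CPM (median 96.6) in WT + IPTG and 55.1 to 93.6 (median 62.8) in LacQ140, and their part in the result was not tested.

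In cortex no member was called in LacQ140 against WT + IPTG at either age by edgeR, of 98 tested at 6 months, where 0.881% of all genes were called, and of 93 tested at 12 months, where 0.0899% were. At an unadjusted p under 0.05 there were 7 members at 6 months and 6 at 12 months. No silent member was called higher, of 62 and 65 tested, against 0.0826% of silent protein-coding genes at 6 months and 0% at 12 months. Onecut1 in 6-month cortex had 0 to 0.259 CPM (median 0.129) in LacQ140 and 0 to 0.132 (median 0.00979) in WT + IPTG, log2 fold change 1.51 (SE 0.53, adjusted p = 0.181). In 12-month cortex it had counts in 3 of 10 LacQ140 libraries (highest 0.206 CPM) and none in WT + IPTG, and Hoxc5 had none in LacQ140.

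Whether the LacQ140 effect itself differed between striatum and cortex was tested as an interaction over both tissues. No member passed it at 6 months (99 tested, 1.12% of all genes called, 4 members at an unadjusted p under 0.05) or at 12 months (101 tested, 2.80% of all genes called, 6 members unadjusted). Hoxc4 at 12 months had an interaction of 6.92 on the log2 scale (SE 2.33, p = 0.00544, adjusted p = 0.125) and Nkx2-2 of 0.48 (adjusted p = 0.0934). For Onecut1 the term was 3.19 with an SE of 15, because every WT + IPTG cortex library was at 0 and the cortical effect could not be estimated. A difference between the tissues was therefore not shown for any single member by this test. Without the mouse block, Hoxa7 passed the interaction test of edgeR at 6 months (2.44, adjusted p = 0.0423), where 0.653% of all genes were called.

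At 12 months, Hoxc4, Hoxc5, Hoxc6, Onecut1 and Pax2 were lower than in LacQ140 striata where the mutant allele was repressed from conception and where it was repressed from 2 months. LacQ140 mice had IPTG to the end and the lowering groups did not. Repression and the lack of IPTG therefore cannot be told apart in the lowering comparisons, at either age or in either tissue. LacQ140_A striata differed from LacQ140 in 9 of 100 members, all lower, against 0.91% of all genes and 1.4% of protein-coding genes, and LacQ140_2M striata in 6, all lower, against 0.608% and 0.977%. Both counts of members fell when genes were kept by filterByExpr. These comparisons share the LacQ140 libraries with the one above, so that values rather than shared calls are given. Libraries did not overlap for 3 members in LacQ140_A, against 0.138% of all genes, and for 2 in LacQ140_2M, against 0.0933%. Hoxc4 had 0 to 0.192 CPM (median 0.0752) in LacQ140_A and 0.0225 to 0.287 (median 0.117) in LacQ140_2M, all below the lowest LacQ140 library, with log2 fold changes of -4.47 (SE 0.34, adjusted p = 3.29e-17) and -3.62 (SE 0.30, adjusted p = 1.94e-15). Hoxc5 had at most 0.0796 CPM in LacQ140_A and 0.229 in LacQ140_2M, also without overlap (log2 fold changes -5.78 and -3.55). Onecut1 had 0.107 to 0.718 CPM (median 0.282) in LacQ140_A and 0.567 to 1.07 (median 0.830) in LacQ140_2M, with log2 fold changes of -2.52 (SE 0.22) and -1.28 (SE 0.19), and the first did not overlap LacQ140. Hoxc6 (-2.36 and -2.25) and Pax2 (-3.04 and -2.43) were called in both groups. Nkx2-3 (-2.61), Pax6 (-0.36), Onecut2 (-0.42) and Hoxd8 were called in LacQ140_A, the last with 31 counts in LacQ140 against 1, a ratio of 32.7 (exact 95% counting interval 5.46 to 1335). Nkx6-1 (-1.66), which had not been called in LacQ140 against WT + IPTG, was called in LacQ140_2M, and this was lost without LacQ140 F5 (adjusted p = 0.103) and when only the 2 groups were fitted (0.0578). Without LacQ140 M3, the library with the highest Onecut2, the Onecut2 call in LacQ140_A was lost (adjusted p = 0.112), as it was in the fit of 2 groups (0.107), and Pax2 in LacQ140_2M was not called by DESeq2 (0.0614).

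Lowering from 8 months gave no called member in striatum. In LacQ140_8M against LacQ140 0 of 100 members passed edgeR's test, against 0.00565% of all genes, with 7 at an unadjusted p under 0.05. Hoxc4 stood at 0.532 to 1.87 CPM (median 1.0), log2 fold change -0.44 (SE 0.20, p = 0.0308, adjusted p = 0.864), and Hoxc5 at 0.218 to 1.22 CPM (median 0.627), log2 fold change -0.69 (SE 0.22, p = 0.00264, adjusted p = 0.864). Onecut1 stood at 1.12 to 3.01 CPM (median 1.86), log2 fold change 0.03 (SE 0.17). Over the 16 members that had risen, the part of the LacQ140 difference in mean CPM that remained had a median of 17.5% in LacQ140_A (-3.10% to 111%), 45.5% in LacQ140_2M (7.22% to 114.9%) and 67% in LacQ140_8M (35.4% to 148%). The same LacQ140 libraries both defined and scaled these shares, so they are given as a description. Hoxc4 kept 3.96%, 7.32% and 72.4% in that order, Onecut1 17.1%, 40.5% and 102%, and Hoxa7 and Hoxd1 kept 78.9% to 114.9% in all 3 groups.

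The summed level of the silent members followed the same order. It was 1.83 to 3.71 CPM (median 2.33) in LacQ140_A, 2.33 to 5.06 (median 2.89) in LacQ140_2M and 4.92 to 8.44 (median 6.14) in LacQ140_8M. Every library of the first 2 groups lay below the lowest LacQ140 library, whereas LacQ140_8M and LacQ140 libraries overlapped.

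At 6 months lowering was tested from conception and from 2 months. LacQ140_A differed from LacQ140 in 3 of 95 members, all lower, against 1.88% of all genes and 2.83% of protein-coding genes, and LacQ140_2M in 3, all lower, against 1.26% and 2.03%, counts near those shares. Onecut1 (-2.07 and -2.75 on the log2 scale) and Hoxa7 (-1.35 and -1.54) were called in both. Nkx2-3 had no count in any of 10 LacQ140_A libraries, so that LacQ140 was at least 9.46-fold higher, and Dlx2 was called in LacQ140_2M (-0.41, adjusted p = 0.0477), a call lost in 5 of 10 fits that left out 1 mouse, in the fit of 2 groups (0.0560) and with a replicate block (0.0828). In cortex no member was called in any lowering group by edgeR. For LacQ140_A the background was 0.00834% at 6 months and 0.0435% at 12 months, with 2 members each at an unadjusted p under 0.05. For LacQ140_2M it was 0% and 0.0841%, with 8 and 2 members, and for LacQ140_8M it was 0%, with 3 members.

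LacQ140_A mice were compared with WT mice, neither with IPTG. In the 12-month striatum 4 of 100 members were higher and none lower, against 3.15% of all genes and 4.76% of protein-coding genes, between which the members' 4% lay. They were Onecut1 (2.81, SE 0.51, adjusted p = 4.1e-05), Hoxa7 (2.38, SE 0.38, adjusted p = 4.85e-06), Hoxd1 (1.16, SE 0.33, adjusted p = 0.0201) and Nkx2-9 (0.66, SE 0.20, adjusted p = 0.0417) on the log2 scale. Hoxa7 had 0.0754 to 0.665 CPM (median 0.332) in LacQ140_A and 0 to 0.0962 (median 0.0716) in WT, with a slight overlap. Nkx2-9 lost its call in 6 of 10 fits that left out 1 mouse and with a replicate block (adjusted p = 0.0738). Hoxd1 lost its call without LacQ140_A M5 (adjusted p = 0.0883), where 2 members were called, and in the fit of 2 groups (0.0801). At 6 months 1 member was called higher in striatum, against 0.91% of all genes, and 1 in cortex, against 0.425%, near the background, and both calls were lost when only the 2 groups compared were fitted. In 12-month cortex none was called, against 0.0174% of all genes, with 7 at an unadjusted p under 0.05.

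Few members were called for IPTG alone, and none when only the 2 groups compared were fitted (adjusted p = 0.101 for Lhx9, 0.160 for Gata3 and 0.0702 for Gata2). In WT + IPTG against WT at 6 months, Lhx9 (1.87, SE 0.41, adjusted p = 0.0124) and Gata3 (35 counts against 3, a ratio of 11.4 with an exact 95% counting interval of 3.6 to 58, adjusted p = 0.0424) were higher in striatum, where 0.584% of all genes were called, and Gata2 in cortex (0.48, SE 0.11, adjusted p = 0.0236), where 0.609% were. The Lhx9 call was lost without WT + IPTG replicate F5, the library at 2.51 CPM, and leaving out 1 mouse ended the call of Gata3 in 4 of 10 fits and of Gata2 in 3 of 10. Gata3 was also not called by DESeq2 (adjusted p = 0.161) or with a replicate block (adjusted p = 0.110). At 12 months none was called by edgeR in striatum (0.218% of all genes, 8 members at an unadjusted p under 0.05) or in cortex (0% of all genes, 2 members).

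The Polycomb machinery itself was read from lists of its genes, as transcript levels only. These counts are read against 11.9% of protein-coding genes called at 6 months and 14.2% at 12 months. Of 12 genes of complex 2 and its cofactors, 0 were called in striatum at 6 months and 1 at 12 months, Epop, a complex 2 cofactor, which fell by 1.0 on the log2 scale (SE 0.11, adjusted p = 1.6e-10). Ezh2, its methyltransferase, and Eed were not called, at 0.17 and 0.07. Of 19 genes of complex 1, 4 were higher at 6 months and 3 at 12 months, the latter near the background, and the chromobox reader Cbx8 (0.93 at both ages) did not overlap between the groups at either age. Pcgf2, a ring-finger subunit, rose by 0.65 and 0.48, and Cbx2 by 0.61 at 6 months. Of 7 H3K27 demethylases and trithorax methyltransferases, Kdm6b (0.64), Kmt2b (0.46) and Kmt2d (0.29) were higher at 6 months and none of the 7 was called at 12 months. Of 103 other developmental transcription factors, 101 were tested in striatum, where 10 rose and 4 fell at 6 months and 18 rose and 5 fell at 12 months, with a median log2 fold change of 0.08 at 12 months. Wt1, a kidney and gonad factor, rose by 3.90 at 6 months and 5.70 at 12 months, Pou4f1, a sensory neuron factor, by 2.82 and 4.99, and Lmx1b by 2.98 at 12 months, while Meis2 (-0.35), a forebrain factor, fell at 12 months.

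Female mice had higher Hoxc levels than male mice in several groups of the 12-month striatum, but no difference passed correction. Hoxc4 in LacQ140 was 2.20 ± 0.237 CPM in 4 females and 1.06 ± 0.673 in 5 males (SD), with ranges of 2.05 to 2.55 and 0.511 to 2.13. Over 24 comparisons by two-sided exact permutation tests, 4 had an unadjusted p under 0.05 and 0 an adjusted p under 0.05, the smallest being 0.190. Hoxc6 in LacQ140 was 0.293 ± 0.0629 CPM in 4 females and 0.137 ± 0.0513 in 5 males, and the ranges did not overlap (exact permutation p = 0.0159, adjusted p = 0.190). That p is the smallest this test can give for 4 against 5 mice. In groups of this size no single difference could pass correction over 24 comparisons, so the tests cannot decide whether the sexes differed.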

How the data were processed

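The authors deposited expected counts per gene (estimated counts that need not be whole; 32.52% of the values above 0 were not) for mouse build GRCm38 with GENCODE vM21, per the labels; aligner, counting program and use of strand are not given in the sources used here. They were rounded, genes with at least 1 count were kept, and each tissue and age was fitted over all its groups with edgeR 4.0.16 (TMM, quasi-likelihood test, R 4.3.3). Members were called at a Benjamini-Hochberg adjusted p under 0.05 over all genes and a change of at least 20%. Tissue differences were fitted with the mouse as a block. Depth was 33292057 to 68038831 counts per library, intervals and floors cover counting error only, and replicates are separate mice per the labels. Of 963 pairs of libraries none agreed within sampling noise (lowest chi-square per degree of freedom 6.50). Same-numbered mice deviated together (correlation over 0.1) in 8 of 10 pairs of 6-month and 4 of 9 of 12-month striatum and 3 of 10 and 2 of 10 of cortex; since this was not every pair in any set and the labels give no pairing, the numbers were not used as pairs. The fit was tested on simulated data. Members and gene lists were chosen with earlier results of these data known. Named genes were members called in any comparison, members without overlap, the 8 highest per kb in WT, 2 on each side of the silence bound and up to 6 called genes per list; other members named were chosen after their values were seen. Alternatives were DESeq2 1.42.0, its size factors, other filters, groups, covariates and bounds, and leaving out each mouse. Some genes that were measured are counted in the totals but their own results are not reported here. Figures were drawn with matplotlib 3.10.9, and exact tests used scipy 1.17.1.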

Additional observations from a re-analysis of the deposited data

Results flagged for a closer look

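Within groups of 9 or 10 mice, 31 sets of values of called members were examined for a library far from the rest, and 5 had one, where chance flags about 1 in 20. In the 6-month striatum, Lhx9 was at 2.51 CPM in WT + IPTG F5 with the next library at 1.13 CPM, and Onecut2 at 28.0 CPM in LacQ140 F5 with the next at 18 CPM. In the 12-month striatum, Onecut2 was at 50.6 CPM in LacQ140 M3 with the next at 32.2 CPM, and Hoxa7 at 0.580 CPM in LacQ140 M4 with the next at 0.378 CPM. Pax6 was at 8.26 CPM in WT + IPTG F3 with the next at 6.44 CPM. None of the calls of these genes between LacQ140 and WT + IPTG was lost when the library in question was left out.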

How the results depend on the processing

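Restricting the fit to genes kept by edgeR's filterByExpr, which leaves 33 members in 6-month and 38 in 12-month striatum, moved 8 of 26 counts by over 1.5 times, since it removes genes with few counts. At 12 months 10 members were then called in LacQ140 against WT + IPTG, 5 of them silent, with 5 called in LacQ140_A and 3 in LacQ140_2M against LacQ140. Members silent in WT pass this filter mainly through groups where they are high. The share of all genes called under it was not worked out, so these counts are a description only. At 6 months 0 silent members were called, with 0 in LacQ140_A, 1 in LacQ140_2M and 1 in WT + IPTG against WT. Calling silence by the mean over all libraries, which removes members that rose, left 6 silent members called at 12 months. Fitting only the 2 groups compared gave 0 members in LacQ140_A against WT in 6-month striatum and cortex and 0 in WT + IPTG against WT in both, and DESeq2 gave 1 for the last in striatum. With a replicate block these were 1 member for WT + IPTG against WT in 6-month striatum and 0 for LacQ140_A against WT in 6-month cortex, and it moved no other count of members by over 1.5 times. The labels do not say that a number marks a pair, and not every same-numbered pair deviated together in any set. Calls of the single genes reported here were lost in 9 of 52 cases with only the 2 groups fitted, 4 of 52 with the replicate block, 3 of 52 with DESeq2 and 2 of 24 with the WT groups pooled. Pooling WT with and without IPTG gave 1 member in LacQ140 6-month cortex, and dropping the mouse block gave 1 in the 6-month interaction (Hoxa7, adjusted p = 0.0423). For these the cause was not tested.

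Leaving out 1 mouse at a time gave 16 to 19 members in LacQ140 against WT + IPTG in 12-month striatum and 8 to 10 at 6 months, with 11 to 13 and 3 to 4 silent members, and 0 in cortex. It gave 8 to 9 for LacQ140_A and 5 to 7 for LacQ140_2M against LacQ140 at 12 months, 3 and 2 to 4 at 6 months, and 2 to 6 for LacQ140_A against WT at 12 months. For WT + IPTG against WT at 6 months it gave 0 to 2 in striatum and 0 to 1 in cortex. Members at a few counts per group are limited by depth, and a member without counts here may still be transcribed below the floor.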
